A study of Mus musculus with 19 samples.

Results

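The enzymes that make bile acids from cholesterol were followed in the livers of Gramd1c-/- and Gramd1c+/+ mice on diets high or low in cholesterol. The set was a list of 10 gene names (Cyp7a1, Hsd3b7, Cyp8b1, Akr1d1, Cyp27a1, Cyp7b1, Amacr, Acox2, Slc27a5 and Baat), and all 10 were found among the 49315 genes of the tables. Bulk RNA sequencing of poly(A) RNA had been done on 1 liver sample from each of 19 female mice. There were 5 Gramd1c-/- and 5 Gramd1c+/+ mice on the high cholesterol diet (0.2% wt/wt), and 4 Gramd1c-/- and 5 Gramd1c+/+ mice on the low cholesterol diet (0.02% wt/wt). Gramd1c encodes Aster-C, a sterol transporter of the endoplasmic reticulum. Gramd1c-/- mice carried a global knockout-first allele (tm1a) on a C57BL/6N background, so the gene was disrupted in every tissue, and Gramd1c+/+ mice were littermates from heterozygous crosses. All mice were 8 weeks old when they were moved from chow to the test diets, and all spent 4 weeks on them. Most were fasted before necropsy for the same 4 h of the day, from morning to early afternoon. The hour at which each mouse was killed is not among the labels.

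Bile acid synthesis is the main route by which the liver turns over cholesterol. In the classic pathway Cyp7a1 adds the initial hydroxyl group to cholesterol in the endoplasmic reticulum, Hsd3b7 and Akr1d1 rework the sterol ring, and Cyp8b1 adds the hydroxyl group that makes cholic acid rather than the chenodeoxycholic acid branch. In the alternative pathway mitochondrial Cyp27a1 oxidises the side chain first and Cyp7b1 then hydroxylates the oxysterol. Amacr and Acox2 prepare the side chain for shortening in peroxisomes, and Slc27a5 and Baat activate and conjugate the product, in mice mostly with taurine. Bile acids returning to the liver act through the nuclear receptor FXR to lower Cyp7a1 and Cyp8b1, and in mice, unlike in humans, cholesterol can raise Cyp7a1 through LXR.

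Each library held between 27149972 and 34669648 counts (median 30159347), of which the 10 genes took 0.184% to 0.325%. Gramd1c was at 1.07 to 3.61 TPM in Gramd1c-/- mice on high cholesterol and 1.25 to 2.04 TPM in Gramd1c-/- mice on low cholesterol, against 9.56 to 11.7 TPM and 10.4 to 16.0 TPM in Gramd1c+/+ mice on the same diets. TPM here is the count per gene length, scaled to the same total in every mouse. The tissue label of the samples reads gonadal adipose tissue and the cell type label reads liver. Alb, the albumin gene of hepatocytes, took 5.25% to 9.17% of all counts, and Adipoq, which defines adipocytes, had at most 13 counts in 18 mice and 177 in the other. A few libraries stood apart. Gramd1c+/+ replicate 2 on low cholesterol had a summed level of 9 adrenal cortex markers of 628 TPM, against 1.76 to 4.65 TPM in the other 18 mice, and of 7 adipocyte markers of 128 TPM, against 1.07 to 14.2 TPM, and it was the mouse with 177 Adipoq counts. Gramd1c-/- replicate 3 on high cholesterol had 285 TPM over 9 bile duct markers, against 44.0 to 87.6 TPM in the others. Gramd1c-/- replicate 4 on high cholesterol had 1327 TPM over 11 Kupffer cell markers, against 299.9 to 737 TPM in the others. Gramd1c-/- replicate 5 on high cholesterol lay farthest out on the leading principal component, which held 24.4% of the variance.

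Slc27a5 was the most abundant member and Hsd3b7 the least. Mean levels over the 19 mice were 955 ± 239 TPM for Slc27a5, 485 ± 69.3 TPM for Cyp27a1, 259 ± 89.8 TPM for Cyp8b1, 213 ± 23.5 TPM for Baat and 161 ± 43.3 TPM for Akr1d1 (SD, n = 19). The lower members averaged 139 ± 19.7 TPM for Amacr, 105 ± 20.0 TPM for Acox2, 66.9 ± 35.4 TPM for Cyp7a1, 59.9 ± 23.4 TPM for Cyp7b1 and 11.1 ± 2.60 TPM for Hsd3b7 (SD, n = 19). Of the 9 pairs of neighbours in this order, 3 were separated by more than their SDs (Slc27a5 and Cyp27a1, Cyp27a1 and Cyp8b1, Cyp7b1 and Hsd3b7), and the ranges of mean ± SD met in the other 6. The members also differed in how steady they were. Cyp7a1 spanned 23.7-fold between its lowest and highest mouse, and Baat 1.58-fold. The SD of Cyp7a1 within groups was 1.11 on the log2 CPM scale, above that of 98.2% of the 15016 genes tested, while that of Baat was 0.161, above 8.04% of them. Cyp27a1 (0.171) and Amacr (0.186) were close to Baat, and Cyp8b1 (0.52) and Cyp7b1 (0.49) lay between these extremes, where the median gene had 0.306. The plot of TPM by mouse gives all values.

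**Figure D1:**
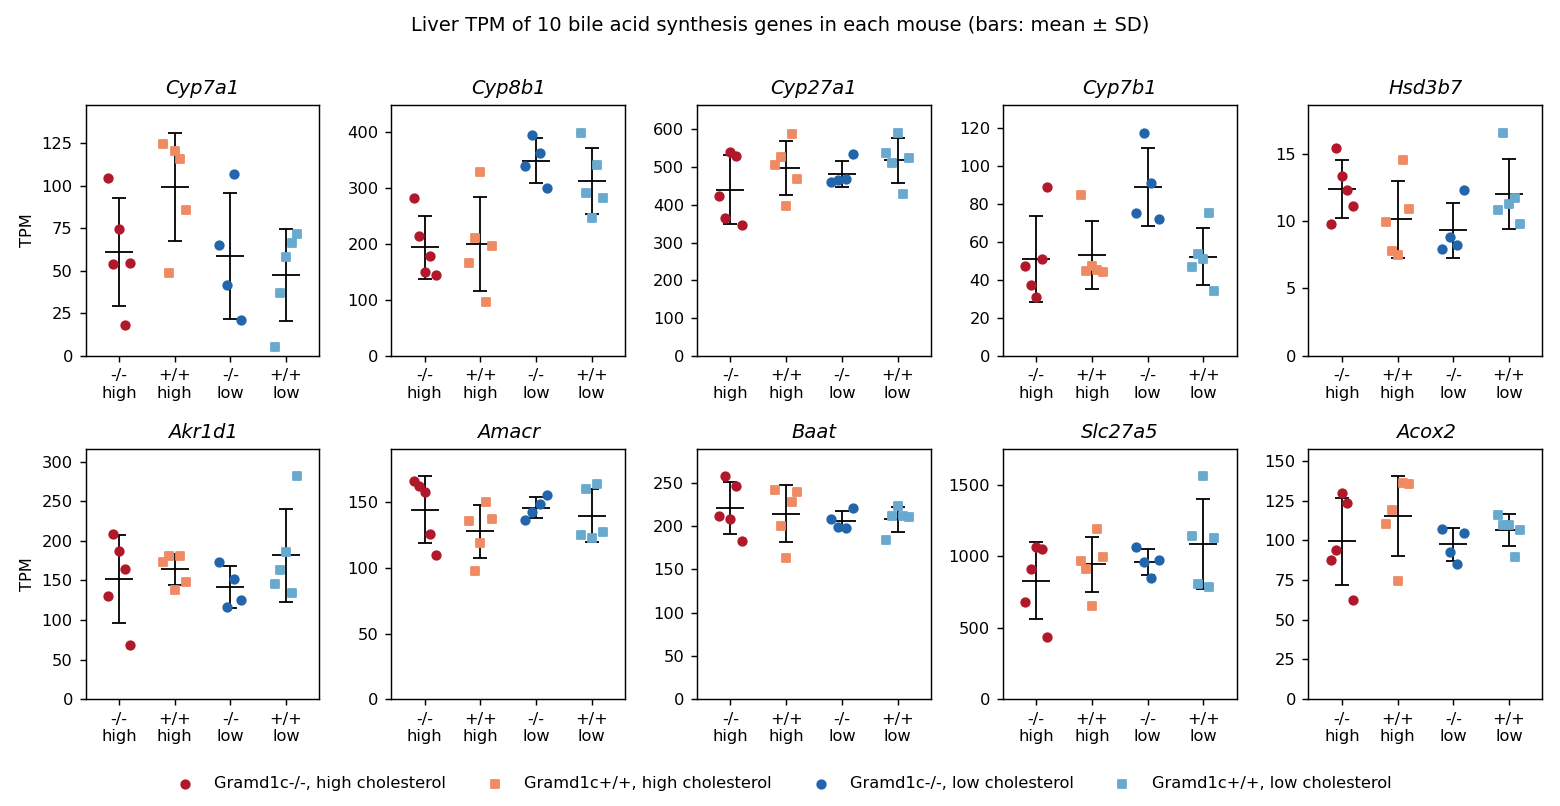
Liver TPM (vertical axes, from 0) of the 10 genes in every mouse, by genotype and diet. Each point is a mouse, horizontal bars are group means and error bars are SDs (n = 5, and n = 4 for Gramd1c-/- on low cholesterol). Cyp8b1 sits lower on high cholesterol in most mice, whereas Cyp7a1 ranges from 5.25 to 124 TPM with wide overlap between groups.

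No member passed the edgeR test in any comparison of genotype or diet. Counts were tested with edgeR's quasi-likelihood F test, and calls were made at 0.05 after Benjamini-Hochberg adjustment over all 15016 genes, of which the 10 members were part. Between Gramd1c-/- and Gramd1c+/+ mice, 0 of 10 members were called on high cholesterol and 0 of 10 on low cholesterol, where the share of all genes called was 0.00666% on each diet, which is Gramd1c alone. At an unadjusted p below 0.05 there was 1 member on high cholesterol (Cyp27a1) and 2 on low cholesterol (Cyp7b1 and Hsd3b7), where 2.42% and 2.66% of all genes lay below that value. Between high and low cholesterol, 0 of 10 members were called in Gramd1c-/- mice and 0 of 10 in Gramd1c+/+ mice, against 0.326% and 0.44% of all genes. At an unadjusted p below 0.05 there were 3 members in Gramd1c-/- mice (Cyp8b1, Cyp7b1 and Hsd3b7) and 0 in Gramd1c+/+ mice, against 11.4% and 7.93% of all genes. With DESeq2, limma on log2(TPM + 1) and voom with sample weights, 0 members were called in these 4 comparisons as well. For genotype, 0 of 10 members had groups without overlap in TPM, where 0.693% of genes were higher and 1.04% lower without overlap on low cholesterol, and 0.186% and 0.0599% on high cholesterol. For diet, 1 of 10 did in Gramd1c-/- mice (Cyp8b1, lower), where 2.68% of genes were higher and 0.773% lower without overlap, and 0 of 10 in Gramd1c+/+ mice, against 0.693% and 1.03%. In bulk liver, fewer hepatocytes and less RNA per hepatocyte cannot be told apart. For diet averaged over genotypes 0 of 8 hepatocyte markers were called by edgeR, limma or voom and 1 by DESeq2. Of these 8, 1 had an unadjusted p below 0.05 (edgeR, against 18.3% of all genes). Their median log2 fold change was -0.18, against 0.02 over all genes, and 6 of 8 were negative. By genotype, 8 of 8 were negative in Gramd1c-/- mice and 5 of 8 in Gramd1c+/+ mice. Their summed level in Gramd1c-/- mice was 78046 to 99774 TPM on high cholesterol, against 108046 to 125823 TPM on low cholesterol. In Gramd1c+/+ mice it was 81048 to 109314 TPM, against 93425 to 127961 TPM. Its part in the differences of the members was not tested.

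The median log2 fold change of the 10 members between Gramd1c-/- and Gramd1c+/+ mice was -0.17 on high cholesterol and -0.07 on low cholesterol, where that of all genes was 0.01 and 0.00. Between high and low cholesterol it was -0.03 in Gramd1c-/- mice and -0.06 in Gramd1c+/+ mice, against 0.02 and 0.01 over all genes. Averaged over both diets, 0 of 10 members were called for genotype by edgeR, against 0.00666% of all genes, and 0 of 10 had an unadjusted p below 0.05, against 2.98%. For the interaction of genotype and diet 0 of 10 were called, against 0% of all genes, and 2 of 10 had an unadjusted p below 0.05 (Hsd3b7 and Cyp7b1), against 1.66%. Neither DESeq2, limma nor voom called a member in these contrasts. The precision differed by gene. For Baat the 95% interval between Gramd1c-/- and Gramd1c+/+ mice averaged over diets ran from 0.877 to 1.12-fold, whereas for Cyp7a1 it ran from 0.488 to 1.51-fold.

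**Figure D2:**
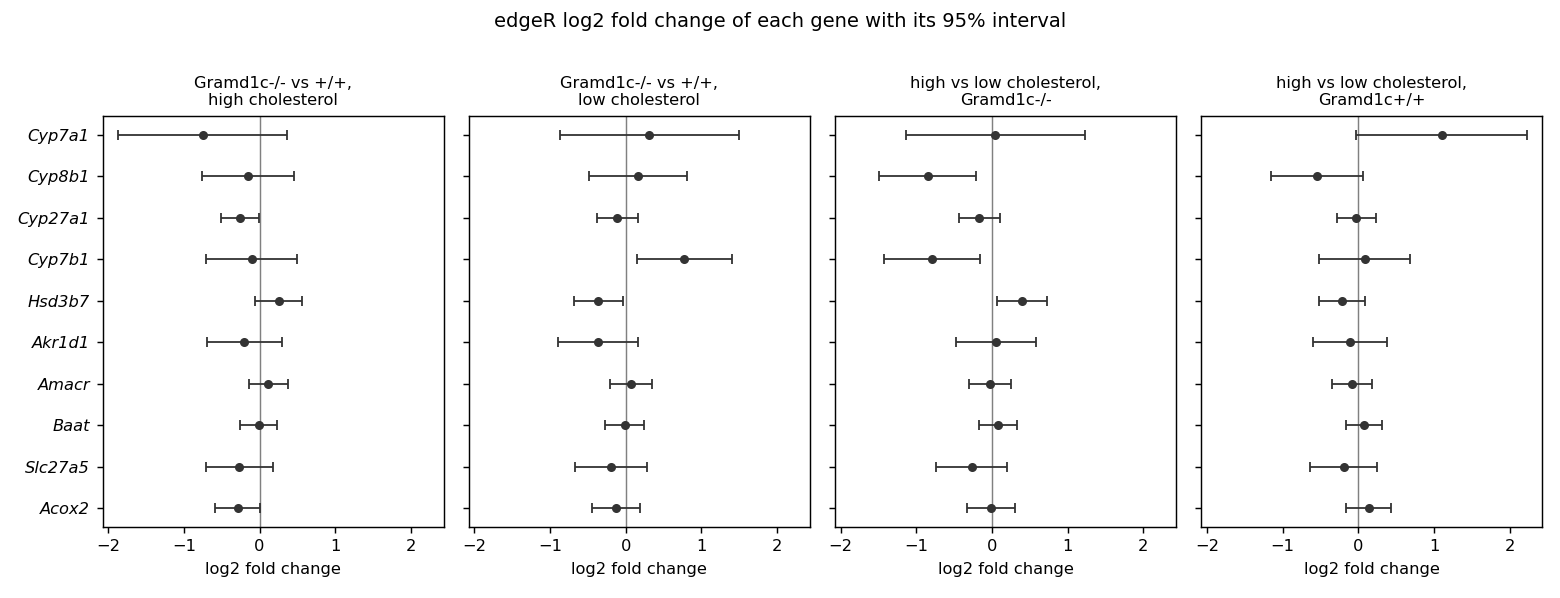
Log2 fold change (horizontal axes) of each of the 10 genes (vertical axis) in the 4 comparisons, with points for edgeR estimates and bars for their 95% intervals. Intervals are widest for Cyp7a1 and narrowest for Baat; of the 10 intervals, 9 include 0 for genotype on high cholesterol, 8 for genotype on low cholesterol, 7 for diet in Gramd1c-/- mice and 10 for diet in Gramd1c+/+ mice.

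Cyp8b1 carried the clearest difference by diet among the members. It had 282, 214, 149.9, 178 and 145 TPM in Gramd1c-/- mice on high cholesterol, against 339, 394, 362 and 299.5 TPM in Gramd1c-/- mice on low cholesterol. In Gramd1c+/+ mice it had 165, 210.4, 328, 96.2 and 196 TPM on high cholesterol, against 398, 291, 245, 341 and 282 TPM on low cholesterol. Every Gramd1c-/- mouse on high cholesterol lay below every Gramd1c-/- mouse on low cholesterol, a pattern that 0.773% of all genes showed, while in Gramd1c+/+ mice replicate 3 on high cholesterol lay among the low cholesterol mice. The log2 fold change was -0.85 ± 0.31 (SE) in Gramd1c-/- mice (edgeR adjusted p = 0.354) and -0.55 ± 0.29 in Gramd1c+/+ mice (edgeR adjusted p = 0.669). The value in Gramd1c+/+ mice was -0.89 without replicate 3 on high cholesterol (edgeR adjusted p = 0.301) and -0.34 without replicate 4 on high cholesterol (edgeR adjusted p = 0.693). Over both genotypes Cyp8b1 averaged 196 ± 67.8 TPM in the 10 mice on high cholesterol and 328 ± 52.2 TPM in the 9 mice on low cholesterol (SD), and 8 of the 10 lay below all 9.

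Averaged over genotypes, the log2 fold change of Cyp8b1 was -0.70 ± 0.21 (SE), with an unadjusted p of 0.00371 and an edgeR adjusted p of 0.106, so 0 of 10 members were called for diet, against 1.3% of all genes. At an unadjusted p below 0.05 it was the only member (1 of 10), against 18.3% of all genes. The call depended on the tool and on 1 mouse. Cyp8b1 was called with DESeq2 (log2 fold change -0.70, adjusted p = 0.0336), with limma on log2(TPM + 1) (-0.81, adjusted p = 0.0285), with voom and sample weights (-0.83, adjusted p = 0.0257), and with edgeR without Gramd1c+/+ replicate 3 on high cholesterol (-0.87, adjusted p = 0.0211). Of all genes, these runs called 598, 148, 259 and 155 in that order, against 195 by edgeR with all mice. The direction was the same in every alternative run, with a log2 fold change between -0.87 and -0.60 when each mouse was left out in turn. The interaction of genotype and diet was -0.31 ± 0.42 (SE, edgeR adjusted p = 1.0), and turned to 0.05 without that same mouse. Between genotypes Cyp8b1 differed by -0.15 ± 0.29 on high cholesterol and 0.16 ± 0.31 on low cholesterol, and the value on high cholesterol turned to 0.20 without Gramd1c+/+ replicate 3.

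The Cyp8b1 gene (ENSMUSG00000050445) spans chr9:121914356-121916305 on the minus strand of GRCm38. Its upstream sequence is shown because its liver regulators are known to bind close to the start. The 150 bases before the annotated start, chr9:121916306-121916455 read on the minus strand from the RefSeq promoter table for GRCm38.p6, are given 5′ to 3′, with capitals for the matches to 3 searched motifs.
Cyp8b1 upstream: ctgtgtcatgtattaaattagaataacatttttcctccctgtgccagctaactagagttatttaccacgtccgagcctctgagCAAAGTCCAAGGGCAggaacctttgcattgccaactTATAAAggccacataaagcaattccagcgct
The run of 15 capitals holds CAAAGTCCA, a site form of HNF4 alpha, at -67 to -59 from the start, which overlaps CAAGGNCA, a site form of LRH-1, at -60 to -53. The 6 capitals nearer the start are a TATA box, TATAAA, at -31 to -26. Both strands were searched from 250 bases before to 50 bases after each start, and of 32851 promoters 0.475% held CAAAGTCCA, 6.71% held CAAGGNCA and 13.6% held TATAAA. Of the 5 members in that table (Cyp8b1, Cyp27a1, Akr1d1, Hsd3b7 and Acox2), Cyp8b1 alone held any of the 3. A site form of FXR, GGTCA and TGACC with a base N between them, was in none of the 5 and in 0.0396% of promoters, and CCAAT was in Cyp27a1 and Acox2 and in 37.4% of promoters. A match is a description of letters, and no binding was measured here.

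The genes of the factors named by these motifs and of the feedback to Cyp8b1 and Cyp7a1 were measured in the same livers. Of 16 regulators in the list, 0 were called for diet averaged over genotypes by edgeR, limma or voom and 1 by DESeq2, and 5 had an unadjusted p below 0.05 (edgeR), where 1.3% of all genes were called and 18.3% had such a p. Mafg, a repressor of Cyp8b1 that FXR induces, averaged 27.1 ± 5.65 TPM and 24.0 ± 5.06 TPM in Gramd1c-/- and Gramd1c+/+ mice on high cholesterol, and 20.0 ± 1.36 TPM and 18.5 ± 3.77 TPM in Gramd1c-/- and Gramd1c+/+ mice on low cholesterol (SD). Its log2 fold change for diet was 0.42 ± 0.12 (SE, edgeR adjusted p = 0.0987). Klb and Fgfr4, which form the hepatocyte receptor for the gut hormone FGF15, had log2 fold changes for diet of -0.57 ± 0.21 (edgeR adjusted p = 0.165) and -0.28 ± 0.10 (edgeR adjusted p = 0.169). Nr5a2, which encodes LRH-1, had -0.28 ± 0.11 (edgeR adjusted p = 0.215), with -0.45 ± 0.17 in Gramd1c-/- mice and -0.10 ± 0.16 in Gramd1c+/+ mice. Hnf4a, which encodes HNF4 alpha, had -0.26 ± 0.15, and Nr1h4, which encodes FXR, had 0.00 ± 0.11. Nr5a2 and Hnf4a were lowest in Gramd1c-/- replicate 5 (13.2 and 124 TPM) and Gramd1c+/+ replicate 3 (16.6 and 132 TPM), both on high cholesterol. In these mice Cyp8b1 had 145 and 328 TPM. The part of Nr5a2 and Hnf4a in the Cyp8b1 difference was not tested. Nr0b2, which encodes the FXR-induced repressor SHP, had 0.43 ± 0.25 averaged over genotypes. For genotype, 0 of these 16 were called on either diet by any of these tools and 0 had an unadjusted p below 0.05 (edgeR).

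Cyp7a1 (ENSMUSG00000028240, chr4:6265612-6275633, minus strand) was the most variable member, and its groups overlapped throughout. It had 104, 54.0, 74.3, 17.9 and 54.5 TPM in Gramd1c-/- mice on high cholesterol, against 124, 48.9, 120.2, 116 and 85.8 TPM in Gramd1c+/+ mice on high cholesterol. On low cholesterol it had 64.9, 41.5, 107 and 20.7 TPM in Gramd1c-/- mice, against 5.25, 36.8, 58.1, 66.1 and 71.4 TPM in Gramd1c+/+ mice. The highest group mean was that of Gramd1c+/+ mice on high cholesterol, at 99.0 ± 31.9 TPM, where 4 of 5 mice lay above every Gramd1c+/+ mouse on low cholesterol. Their log2 fold change against low cholesterol was 1.10 ± 0.54 (SE), or 2.14-fold with a 95% interval of 0.982 to 4.68-fold, with an unadjusted p of 0.0552 and an edgeR adjusted p of 0.625. It ranged from 0.81 to 1.30 with single mice left out, lowest without Gramd1c+/+ replicate 1 on low cholesterol, which had 5.25 TPM. In Gramd1c-/- mice the difference by diet was 0.04 ± 0.57 (edgeR adjusted p = 0.979). Between Gramd1c-/- and Gramd1c+/+ mice it was -0.75 ± 0.54 on high cholesterol (edgeR adjusted p = 1.0) and 0.31 ± 0.57 on low cholesterol (edgeR adjusted p = 0.999), which turned to -0.16 without Gramd1c-/- replicate 3. The interaction was -1.06 ± 0.78, with an interval that runs on the linear scale from 0.156 to 1.48-fold.

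The genes that ran most like Cyp7a1 over the 19 mice belong to the circadian clock or its outputs. By Pearson's r of log2 TMM CPM, the 3 nearest of all tested genes were Dbp (r = 0.78), a clock output factor that binds the Cyp7a1 promoter in rats, Per3 (0.75), a clock repressor, and Wee1 (0.75), a cell cycle kinase under clock control. Genes were ranked by r, so these values are descriptions, and libraries, depth and mice were shared. With group means removed r was 0.75, 0.73 and 0.79 for Dbp, Per3 and Wee1. For Dbp the rank correlation was 0.61, and r without the 2 mice farthest from its median (Gramd1c+/+ replicates 1 and 2 on low cholesterol) was 0.68 over 17 mice. Arntl, which encodes BMAL1 and peaks in the opposite phase to Dbp, ran the other way (r = -0.75, or -0.80 without its 2 most distant mice). It was named after its values were seen, so its r and the match of mice given next are descriptions. The 4 mice with the highest Arntl were the 4 mice with the lowest Cyp7a1. They had 2.35 TPM of Arntl (Gramd1c-/- replicate 4, high cholesterol), 2.32 TPM (Gramd1c-/- replicate 4, low cholesterol), 2.58 TPM (Gramd1c+/+ replicate 1, low cholesterol) and 2.04 TPM (Gramd1c+/+ replicate 2, low cholesterol), and the other 15 mice had at most 1.20 TPM. Their Cyp7a1 levels were 17.9, 20.7, 5.25 and 36.8 TPM, and the other 15 mice had at least 41.5 TPM. Of these 4 mice 0 were Gramd1c+/+ on high cholesterol. As that group had the highest mean Cyp7a1, it was less likely to hold the mice lowest in Cyp7a1, and the count is a description only. Of 15 clock genes, 0 were called by edgeR, limma or voom in any of the comparisons, and 1 by DESeq2 for diet averaged over genotypes. At an unadjusted p below 0.05 (edgeR) there was 1 for diet in Gramd1c+/+ mice, against 7.93% of all genes, and 0 in Gramd1c-/- mice. There was 1 for diet averaged over genotypes, against 18.3%, and 1 for genotype averaged over diets, against 2.98%. For genotype on either diet there were 0. For diet in Gramd1c+/+ mice Dbp had a log2 fold change of 0.45 ± 0.35 and Arntl -0.91 ± 0.50 (SE), and their part in the Cyp7a1 difference was not tested.

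**Figure D3:**
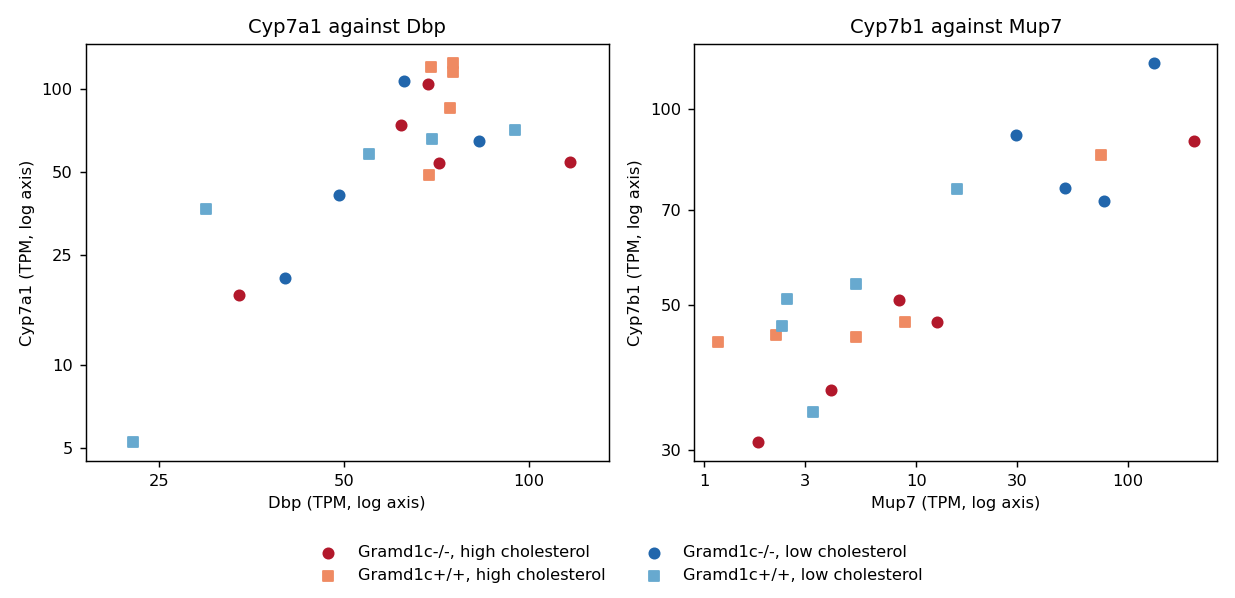
TPM of Cyp7a1 against Dbp (left) and of Cyp7b1 against Mup7 (right) in the 19 mice, all on log axes, with colour and shape for genotype and diet. Each point is a mouse; Cyp7a1 is lowest (5.25 TPM) in the mouse with the lowest Dbp (22.7 TPM), and 3 of the 4 highest Cyp7b1 levels belong to Gramd1c-/- mice, 2 of them on low cholesterol.

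Cyp7b1 (ENSMUSG00000039519, chr3:18071950-18243338, minus strand), the oxysterol hydroxylase of the alternative pathway, had its highest mean in Gramd1c-/- mice on low cholesterol. It had 47.2, 37.1, 30.9, 50.9 and 89.1 TPM in Gramd1c-/- mice on high cholesterol, against 84.8, 44.7, 47.2, 45.0 and 44.0 TPM in Gramd1c+/+ mice on high cholesterol. On low cholesterol it had 75.5, 117, 91.1 and 72.2 TPM in Gramd1c-/- mice, against 46.5, 53.9, 51.1, 75.4 and 34.3 TPM in Gramd1c+/+ mice. On low cholesterol the genotypes overlapped only through Gramd1c+/+ replicate 4, and on high cholesterol 1 mouse of each genotype stood apart (89.1 and 84.8 TPM), with the other 8 mice at or below 50.9 TPM. The log2 fold change between Gramd1c-/- and Gramd1c+/+ mice was 0.77 ± 0.30 (SE) on low cholesterol, with an unadjusted p of 0.0189 and an edgeR adjusted p of 0.999. On high cholesterol it was -0.10 ± 0.29, which turned to 0.13 without Gramd1c+/+ replicate 1 and was -0.45 without Gramd1c-/- replicate 5. Between high and low cholesterol it was -0.80 ± 0.30 in Gramd1c-/- mice (unadjusted p = 0.0160, edgeR adjusted p = 0.360), and -1.14 without Gramd1c-/- replicate 5 on high cholesterol (edgeR adjusted p = 0.105). In Gramd1c+/+ mice it was 0.08 ± 0.29, and the interaction was -0.88 ± 0.42 (unadjusted p = 0.0482, edgeR adjusted p = 1.0).

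Cyp7b1 is known for higher expression in male than in female mouse liver, and it ran with other genes of that kind although all mice here were female. Its 3 nearest genes were Hsd3b5 (r = 0.89), a steroid dehydrogenase, Mup7 (0.89), a major urinary protein, and Susd4 (0.88), all 3 in the list of 15 male-biased liver genes that leaves Cyp7b1 out. For Mup7 the rank correlation was 0.87, and r without its 2 most distant mice was 0.84. Mup7 had 12.5, 3.95, 1.79, 8.27 and 203.5 TPM in Gramd1c-/- mice on high cholesterol, against 74.8, 5.17, 8.82, 2.19 and 1.16 TPM in Gramd1c+/+ mice on high cholesterol. On low cholesterol it had 50.3, 133, 29.5 and 76.6 TPM in Gramd1c-/- mice, against 2.32, 5.22, 2.44, 15.6 and 3.24 TPM in Gramd1c+/+ mice. The 6 mice with Mup7 above all others were the 4 Gramd1c-/- mice on low cholesterol and the same 2 high cholesterol mice in which Cyp7b1 stood apart. The summed level of the 15 male-biased genes ranged from 759 to 1488 TPM in Gramd1c-/- mice on low cholesterol, against 338 to 806 TPM in Gramd1c+/+ mice on low cholesterol. On high cholesterol it ranged from 313 to 2931 TPM in Gramd1c-/- mice and from 361 to 1692 TPM in Gramd1c+/+ mice, with the maxima in the 2 mice named. In the comparison of genotypes on low cholesterol, the median log2 fold change was 1.12 over the male-biased genes, positive in 15 of 15, and -1.60 over the female-biased genes, negative in 17 of 18, where that of all genes was 0.00. Of these 33 genes, 0 were called by edgeR, DESeq2, limma or voom, and 6 male-biased and 8 female-biased genes had an unadjusted p below 0.05 (edgeR), where 2.66% of all genes did. On high cholesterol the medians were 0.31 over the male-biased genes, positive in 13 of 15, and 0.24 over the female-biased genes, positive in 14 of 18. Both lists were chosen with earlier results of these data known, so their counts are descriptions. The study had already reported Mup7 and Susd4 as altered between genotypes on low cholesterol. It also reported other Mup genes as higher, and several Cyp3a genes and Sult3a2 as lower, in Gramd1c-/- mice. Its threshold was 0.05 in tests on TPM with no adjustment over genes described, unlike the calls here. Mup and Hsd3b genes have close copies, between which reads may have been split. The part of these sex-biased genes in the Cyp7b1 difference was not tested.

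Hsd3b7 (ENSMUSG00000042289, chr7:127800604-127803802, plus strand), the dehydrogenase that follows Cyp7a1 and Cyp7b1, had genotype differences of opposite sign on the 2 diets, at a low level. It had 9.83, 15.5, 13.4, 12.3 and 11.1 TPM in Gramd1c-/- mice on high cholesterol, against 9.94, 7.76, 7.52, 14.6 and 10.9 TPM in Gramd1c+/+ mice on high cholesterol. On low cholesterol it had 7.94, 8.79, 8.22 and 12.3 TPM in Gramd1c-/- mice, against 10.9, 16.6, 11.3, 11.7 and 9.78 TPM in Gramd1c+/+ mice. The groups overlapped on both diets, and counts ranged from 288 to 621 per mouse. The log2 fold change between Gramd1c-/- and Gramd1c+/+ mice was 0.25 ± 0.15 (SE) on high cholesterol and -0.36 ± 0.16 on low cholesterol. The interaction was 0.62 ± 0.21, with the smallest unadjusted p of the 10 members for that contrast (0.00938) and an edgeR adjusted p of 1.0. Between high and low cholesterol it was 0.40 ± 0.16 in Gramd1c-/- mice (edgeR adjusted p = 0.373) and -0.22 ± 0.15 in Gramd1c+/+ mice (edgeR adjusted p = 0.738). Gramd1c+/+ replicate 2 on low cholesterol, the mouse with adrenal cortex and adipocyte markers, had the highest Hsd3b7 of all mice. Without it the genotype difference on low cholesterol was -0.28 (unadjusted p = 0.0926) and the interaction 0.53 (unadjusted p = 0.0220), and the part of adrenal or fat tissue in the Hsd3b7 level was not tested.

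Cyp27a1, which oxidises the sterol side chain in mitochondria, Slc27a5, the bile acid CoA ligase, Acox2, a peroxisomal oxidase, and Akr1d1, the ring reductase, varied together from mouse to mouse. Over 19 mice r was 0.79 between Cyp27a1 and Slc27a5, 0.77 between Slc27a5 and Acox2, 0.70 between Akr1d1 and Slc27a5, and between 0.51 and 0.79 over the 6 pairs of these 4 genes. All 4 were lowest in Gramd1c-/- replicate 5 on high cholesterol, with 346 TPM of Cyp27a1, 433 TPM of Slc27a5, 62.5 TPM of Acox2 and 67.8 TPM of Akr1d1. Without that mouse the 6 values of r lay between 0.30 and 0.71. Over all 45 pairs of members r had a median of 0.08 and a range of -0.50 to 0.79, and Cyp7a1 and Cyp8b1, which share the feedback by bile acids, had -0.19. Slc27a5 also followed the leading principal component of all genes (r = -0.78, and -0.59 without the same mouse).

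**Figure D4:**
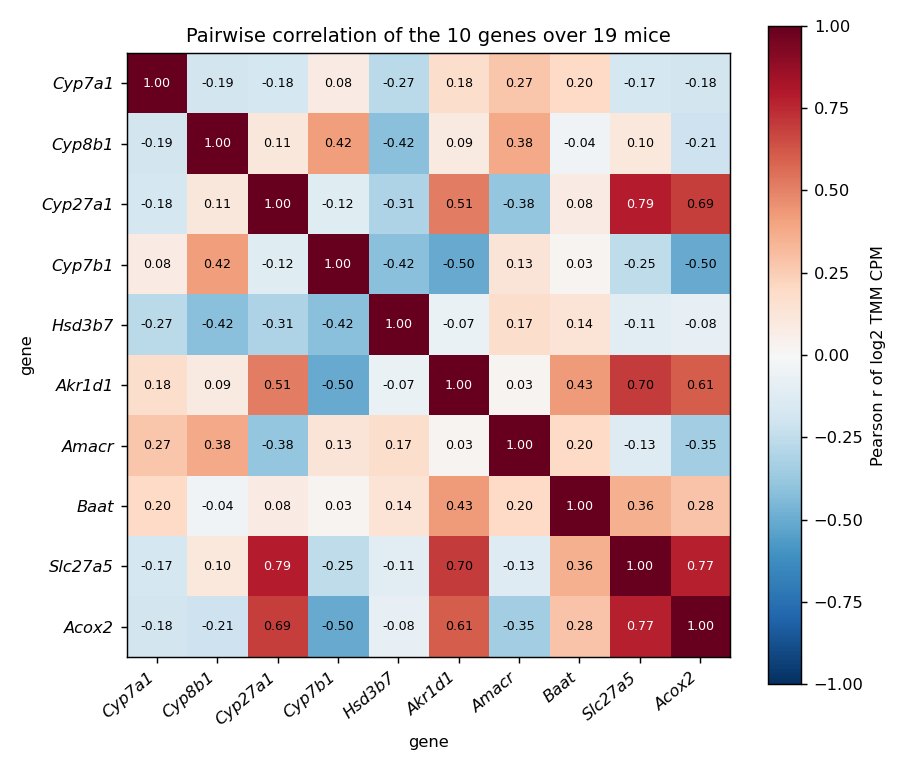
Pearson r of log2 TMM CPM over 19 mice for each pair of the 10 genes (both axes), from -1 (blue) to 1 (red), with the value in each cell. Cyp27a1, Akr1d1, Slc27a5 and Acox2 share values from 0.51 to 0.79, while Cyp7a1 with Cyp8b1 has -0.19.

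Cyp27a1 (ENSMUSG00000026170, chr1:74713574-74737892, plus strand) was the member with the smallest unadjusted p for genotype on high cholesterol. It had 422, 365, 541, 529 and 346 TPM in Gramd1c-/- mice on high cholesterol, against 506, 526, 398, 589 and 469.7 TPM in Gramd1c+/+ mice on high cholesterol. On low cholesterol it had 461, 465, 469 and 534 TPM in Gramd1c-/- mice, against 537, 510.4, 590.4, 427 and 525 TPM in Gramd1c+/+ mice. The groups overlapped on both diets. The log2 fold change on high cholesterol was -0.26 ± 0.12 (SE), with an unadjusted p of 0.0489 and an edgeR adjusted p of 1.0, and -0.21 without Gramd1c-/- replicate 5 (unadjusted p = 0.108). On low cholesterol it was -0.11 ± 0.13. Diet gave -0.17 ± 0.13 in Gramd1c-/- mice and -0.03 ± 0.12 in Gramd1c+/+ mice.

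The other enzymes of the ring and the side chain gave small differences with overlapping groups. Slc27a5 (ENSMUSG00000030382, chr7:12988346-12998192, minus strand) averaged 829 ± 271 TPM in Gramd1c-/- mice and 945 ± 194 TPM in Gramd1c+/+ mice on high cholesterol, and 962 ± 89.2 TPM in Gramd1c-/- mice and 1084 ± 316 TPM in Gramd1c+/+ mice on low cholesterol (SD). Its log2 fold change between Gramd1c-/- and Gramd1c+/+ mice was -0.27 ± 0.21 (SE) on high cholesterol and -0.19 ± 0.23 on low cholesterol. On high cholesterol it was -0.12 without Gramd1c-/- replicate 5, and on low cholesterol it was 0.0027 without Gramd1c+/+ replicate 3 and -0.32 without replicate 2. Acox2 (ENSMUSG00000021751, chr14:8225511-8259353, minus strand) averaged 99.3 ± 27.5 TPM and 115 ± 25.1 TPM in Gramd1c-/- and Gramd1c+/+ mice on high cholesterol, and 97.3 ± 10.3 TPM and 106 ± 10.1 TPM in Gramd1c-/- and Gramd1c+/+ mice on low cholesterol. Its log2 fold change on high cholesterol was -0.29 ± 0.14 (SE, unadjusted p = 0.0590, edgeR adjusted p = 1.0), and -0.18 without Gramd1c-/- replicate 5 (unadjusted p = 0.171). Akr1d1 (ENSMUSG00000038641, chr6:37530173-37568815, plus strand) averaged 152 ± 55.0 TPM and 164 ± 19.8 TPM in Gramd1c-/- and Gramd1c+/+ mice on high cholesterol, and 141 ± 26.1 TPM and 182 ± 58.8 TPM in Gramd1c-/- and Gramd1c+/+ mice on low cholesterol. Between genotypes on high cholesterol Akr1d1 differed by -0.20 ± 0.24 on the log2 scale (SE), and by -0.027 without Gramd1c-/- replicate 5. The difference on low cholesterol was -0.36 ± 0.25 (edgeR adjusted p = 0.999), and -0.14 without Gramd1c+/+ replicate 5, the highest of all mice at 281 TPM.

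Amacr, the racemase that readies the side chain for oxidation, and Baat, the transferase that joins bile acids to taurine or glycine, were the steadiest with Cyp27a1. Amacr (ENSMUSG00000022244, chr15:10981756-10996624, plus strand) averaged 144 ± 25.2 TPM and 128 ± 20.2 TPM in Gramd1c-/- and Gramd1c+/+ mice on high cholesterol, and 146 ± 7.98 TPM and 139.7 ± 20.3 TPM in Gramd1c-/- and Gramd1c+/+ mice on low cholesterol (SD). Baat (ENSMUSG00000039653, chr4:49489422-49506557, minus strand) averaged 221 ± 30.5 TPM and 215 ± 33.3 TPM in Gramd1c-/- and Gramd1c+/+ mice on high cholesterol, and 207 ± 10.6 TPM and 208 ± 14.4 TPM in Gramd1c-/- and Gramd1c+/+ mice on low cholesterol. For Baat the 95% interval between genotypes on high cholesterol was 0.839 to 1.17-fold. For Amacr the log2 fold changes in the 4 comparisons lay between -0.09 and 0.12.

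For the other members the 3 genes with the highest r were taken in the same way, as a description. Akr1d1 ran with Slc25a11 (r = 0.94), a mitochondrial carrier, Afmid (0.92), of tryptophan breakdown, and Gnmt (0.91), the glycine methyltransferase. Slc27a5 ran with Atp5a1, Dpyd and Papss2 (0.93, 0.92 and 0.92), Cyp27a1 with Kpnb1, Saraf and Hrg (0.84, 0.83 and 0.83), and Acox2 with Bag5, Cyp2b10 and Slco1a4 (0.89, 0.88 and 0.87). Baat ran with Ugt2b36, Ggh and Gpx1 (0.87, 0.81 and 0.81), Amacr with Serpinb8, Gm5869 and Pde6d (0.87, 0.81 and 0.79), and Hsd3b7 with Nfkbie, Taf9b and Klhl20 (0.75, 0.70 and 0.68). Cyp8b1 ran with Erg28, Plbd1 and Afm (0.79 each). Erg28 is known from yeast as a scaffold of sterol synthesis.

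Of 18 further genes listed with bile acid synthesis, 17 were tested. For diet averaged over genotypes, edgeR, limma and voom called 1 of them and DESeq2 called 3. A place in this list does not show that a gene acts in that synthesis. Acaa1b, a peroxisomal thiolase, averaged 1789 ± 285 TPM and 1791 ± 457 TPM in Gramd1c-/- and Gramd1c+/+ mice on high cholesterol, and 1086 ± 225 TPM and 1096 ± 257 TPM in Gramd1c-/- and Gramd1c+/+ mice on low cholesterol (SD). Acaa1b rose on high cholesterol by 0.71 ± 0.14 on the log2 scale averaged over genotypes (SE, edgeR adjusted p = 0.0134), where 1.3% of all genes were called, and with replicate number as a block its adjusted p was 0.0545 (edgeR). Cyp46a1, which hydroxylates cholesterol mainly in neurons, had 0.97 ± 0.27 (edgeR adjusted p = 0.0859), Abcd3, a peroxisomal transporter of bile acid intermediates, -0.46 ± 0.13 (edgeR adjusted p = 0.0901), and Acaa1a, the related thiolase, 0.23 ± 0.09 (edgeR adjusted p = 0.180). Cyp46a1 was low, at 4.07 ± 2.92 TPM and 3.11 ± 1.02 TPM in Gramd1c-/- and Gramd1c+/+ mice on high cholesterol (SD). On low cholesterol it averaged 1.88 ± 0.43 TPM and 1.80 ± 0.55 TPM in Gramd1c-/- and Gramd1c+/+ mice. Its highest level, 9.07 TPM, was in Gramd1c-/- replicate 5 on high cholesterol. Acaa1a and Acaa1b are close copies, between which reads may have been split. The median log2 fold change of the 17 genes was 0.15, against 0.02 over all genes. For genotype, 0 of the 17 were called on either diet by edgeR, DESeq2, limma or voom, and 0 had an unadjusted p below 0.05.

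Of 12 bile acid transporters 11 were tested, and 0 were called for diet or genotype by edgeR, DESeq2, limma or voom. For diet averaged over genotypes 2 of 11 had an unadjusted p below 0.05, a share near the 18.3% of all genes. These were Slc10a1, the main uptake carrier of hepatocytes, with a log2 fold change of -0.31 ± 0.11 (edgeR adjusted p = 0.142), and Abcc4, an export pump of the blood side, with 0.42 ± 0.16 (edgeR adjusted p = 0.178). For genotype 0 of 11 had an unadjusted p below 0.05 on either diet.

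Sterol genes of the same livers differed strongly by diet. Of 10 genes that cells lower when sterols are plentiful, all 10 had negative log2 fold changes on high cholesterol in both genotypes, with medians of -2.44 in Gramd1c-/- mice and -2.24 in Gramd1c+/+ mice. In Gramd1c-/- mice edgeR, DESeq2 and voom called 10 of them and limma 9, and in Gramd1c+/+ mice edgeR and limma called 9 and DESeq2 and voom 10. Of all genes, edgeR called 0.326% in Gramd1c-/- mice and 0.44% in Gramd1c+/+ mice. Sqle, which encodes squalene epoxidase, averaged 1.86 ± 0.46 TPM and 1.94 ± 0.22 TPM in Gramd1c-/- and Gramd1c+/+ mice on high cholesterol, and 43.8 ± 9.98 TPM and 44.4 ± 12.1 TPM in Gramd1c-/- and Gramd1c+/+ mice on low cholesterol (SD). Of 10 LXR targets, edgeR called 1 for diet averaged over genotypes, where 1.3% of all genes were called. Log2 fold changes were positive in 7 of the 10 and negative in 3. The gene called was Abcg5, of the sterol export pump, which rose on high cholesterol by 0.67 ± 0.13 on the log2 scale (SE, edgeR adjusted p = 0.00634).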

How the data were processed

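Liver RNA sequencing of 19 female mice was analysed, with a library from each mouse. The authors deposited raw counts by Ensembl identifier, with gene positions and lengths, and these counts were not normalized. Submitters' processing notes list STAR 2.5.2b and GRCm38. Which program counted the reads, whether it used strand, and the annotation release were not given in the sources used here. A symbol was found by identifier for 48970 of 49315 genes.

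Counts were tested with edgeR 4.0.16 (R 4.3.3), using TMM scaling, filterByExpr by group with a minimum count of 10 (15016 genes kept), a coefficient for each of the 4 groups, the quasi-likelihood F test and Benjamini-Hochberg adjustment over all genes kept. No test for sequencing counts was taken from the study's methods. SEs are the log2 fold change over the square root of F, and intervals are at 95%. The common biological coefficient of variation was 0.255. TPM was computed from the counts and gene lengths. Likeness was Pearson's r of log2 TMM CPM. P-values measure the spread between these mice. The test was tried on simulated data.

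The members and gene lists were chosen with earlier results of these data known. The text names all 10 members in every comparison, up to 4 genes of another list with the smallest unadjusted p, and for each member the 3 tested genes with the highest r. Gramd1c was named as the check of the labels. Hnf4a, Nr1h4, Nr0b2, Arntl, Sqle, Alb and Adipoq were named for their roles, after their values were seen. The alternatives were RLE size factors, DESeq2 1.42.0, no filter, and a stricter filter (a mean count of 100, and 10 counts in every mouse of a group). Others were only the groups compared, replicate number as a block, limma 3.58.1 on log2(TPM + 1), voom with sample weights, and each mouse left out. A further run left out Gramd1c-/- replicate 5 on high and Gramd1c+/+ replicate 2 on low cholesterol together. The other libraries described as standing apart were left out only singly. Tables were made with Python 3.11.15, numpy 2.4.6, pandas 2.3.3 and matplotlib 3.10.9.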

Additional observations from a re-analysis of the deposited data

Results flagged for a closer look

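In 40 groups of 4 or 5 mice (10 genes in 4 groups), 3 mice lay far from the others of their group by Dixon's test at 95%, where chance gives about 1 group in 20. Cyp27a1 had 534 TPM in Gramd1c-/- replicate 4 on low cholesterol, against 461 to 469 TPM in the other 3 mice. Cyp7b1 had 84.8 TPM in Gramd1c+/+ replicate 1 on high cholesterol, against 44.0 to 47.2 TPM in the other 4. The summed level of the male-biased genes in that mouse was 1692 TPM, the highest of its group. Hsd3b7 had 16.6 TPM in Gramd1c+/+ replicate 2 on low cholesterol, against 9.78 to 11.7 TPM in the other 4. That mouse had 628 TPM of adrenal cortex markers and 128 TPM of adipocyte markers, and their part in its Hsd3b7 level was not tested.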

How the results depend on the processing

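Of 424 log2 fold changes of members under 9 settings, 408 kept their sign and 16 turned, and of 912 with 1 mouse left out 30 turned. For diet averaged over genotypes, 1 member was called (Cyp8b1) with DESeq2, 1 with limma and 1 with voom, and 0 to 1 with single mice left out, the 1 without Gramd1c+/+ replicate 3 on high cholesterol. Under the stricter filter Baat was 0.0038 for genotype on high cholesterol, Amacr 0.0099 and Acox2 0.022 for diet in Gramd1c-/- mice, and Cyp27a1 0.0013 for diet in Gramd1c+/+ mice. With limma Cyp8b1 was 0.024 and Baat 0.048 for genotype on high cholesterol. With voom Cyp8b1 was 0.31 for genotype on high cholesterol and 0.11 for the interaction, Baat 0.0056 for genotype on low cholesterol, Amacr 0.028 and Acox2 0.040 for diet in Gramd1c-/- mice, and Cyp27a1 0.0015 for diet in Gramd1c+/+ mice. One run left out Gramd1c-/- replicate 5 on high and Gramd1c+/+ replicate 2 on low cholesterol together. There Baat was 0.024 for genotype on high cholesterol, and Amacr 0.031 and Acox2 0.088 for diet in Gramd1c-/- mice. With the replicate block Acox2 was 0.0033 for diet in Gramd1c-/- mice. With single mice left out, genotype on high cholesterol ranged from -0.087 to 0.064 for Baat, -0.45 to 0.13 for Cyp7b1 and -0.36 to 0.20 for Cyp8b1, and on low cholesterol from -0.055 to 0.035 for Baat, -0.16 to 0.60 for Cyp7a1 and -0.32 to 0.0027 for Slc27a5. Diet in Gramd1c-/- mice ranged from -0.086 to 0.088 for Acox2, -0.11 to 0.23 for Akr1d1, -0.12 to 0.033 for Amacr and -0.29 to 0.50 for Cyp7a1. Diet in Gramd1c+/+ mice ranged from -0.20 to 0.11 for Akr1d1, -0.095 to 0.051 for Cyp27a1, -0.15 to 0.25 for Cyp7b1 and -0.32 to 0.0031 for Slc27a5, and the interaction of Cyp8b1 from -0.52 to 0.055. The cause was not tested. DESeq2 called more of all genes than edgeR, with 94 against 49 for diet in Gramd1c-/- mice, 111 against 66 in Gramd1c+/+ mice and 598 against 195 averaged over genotypes. Same-numbered mice of different groups were on average no more alike than others. The mean correlation of deviations was -0.0689 over 27 same-numbered pairs (5 above 0.1) and 0.0173 over 108 others. The labels do not say whether the numbers pair mice, and a mean over pairs cannot settle it. With the replicate block 122 genes were called for diet averaged over genotypes, against 195 without it, no member was called, and the adjusted p of Acaa1b was 0.0545 (edgeR). Abcg5 was called for diet averaged over genotypes in every alternative run, and Acaa1b in every one but the block. With 4 or 5 mice a group, the 95% interval of Cyp7a1 for diet averaged over genotypes ran from 0.842 to 2.62-fold.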
